A study of Mus musculus with 12 samples.

Results

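The Hox genes described here are the genes of the deposited count table whose symbol is Hox followed by a cluster letter, a, b, c or d, and a paralog number. This rule found 39 genes of 24421, of which 11 belong to cluster a, 10 to cluster b, 9 to cluster c and 9 to cluster d, and it used no measured value. RNA was sequenced from mouse embryonic fibroblasts (MEFs) in 12 libraries, 3 in each of 4 groups. The groups were Null MEFs without treatment, Null MEFs after 8 hr in 100 µM etoposide, and TFEB/TFE3 DKO MEFs under the same 2 conditions. Null is the labels' name for the control genotype, which the paper calls WT. The libraries titled Control are called untreated here, and the paper describes these cells as given DMSO. In DKO MEFs Tfeb and Tfe3 had been disrupted with CRISPR, and every genotype came from 1 immortalized line, so genotype and line cannot be told apart in any comparison of DKO with Null MEFs. The study asked how these factors act in the response to DNA damage. The libraries held between 45577023 and 104120871 counts on genes, with a median of 71634158.5.

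Hox genes encode homeodomain transcription factors that give cells their position along the body axis and along the limbs. The genes of a cluster lie side by side and are numbered by position, with low paralog numbers at the end that is used early and toward the head, and high numbers at the end that is used late, toward the tail and, in clusters a and d, toward the tip of the limb. Fibroblasts in culture are known to keep the Hox pattern of the place in the body they came from. TFEB and TFE3 are transcription factors of lysosomal and autophagy genes that bind the letters CACGTG, and etoposide blocks topoisomerase II and breaks DNA.

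The targeted genes were read first, since they check the labels. Tfeb was measured at 38.9, 39.2 and 42.1 CPM (a gene's counts scaled to a common library size) in the untreated Null libraries, at 4.6, 6.09 and 4.68 CPM in the untreated DKO libraries, at 11.4, 10.2 and 10.4 CPM in Null after etoposide and at 1.92, 1.61 and 2.2 CPM in DKO after etoposide. Tfe3 was measured at 115, 110 and 114 CPM in untreated Null, 94.1, 93.1 and 91 CPM in untreated DKO, 68.5, 69.6 and 68.1 CPM in Null after etoposide, and 70.7, 71.2 and 63.4 CPM in DKO after etoposide. Every DKO library was below every Null library of the same treatment for Tfeb, and for Tfe3 without etoposide, while the Tfe3 levels overlapped after etoposide. The log2 fold change of Tfeb in DKO over Null was -2.94 without and -2.46 with etoposide (standard errors 0.09 and 0.12, edgeR adjusted p = 1.05e-14 and 5.06e-12), with no overlap. Editing can leave a transcript in place, so the level of Tfe3 does not by itself check its label. Library sizes for CPM were scaled by edgeR's TMM method. The 16 fibroblast markers were all tested, and had a summed level of 7750 ± 87.1 CPM in untreated Null and 13041 ± 344 CPM in untreated DKO libraries (SD, n = 3 each).

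The clusters lie on 4 chromosomes of GRCm38: cluster a on chromosome 6 (minus strand), cluster b on chromosome 11 (chr11:96194316-96368256), cluster c on chromosome 15 (chr15:102921103-103036852) and cluster d on chromosome 2 (chr2:74668310-74765142), the last 3 on the plus strand. A gene was called detected in a group when each of its 3 libraries held more than 3 counts, a floor that corresponded to 0.0298 to 0.0607 CPM. By this measure 30 of the 39 Hox genes were detected in untreated Null MEFs and 14 in untreated DKO MEFs, beside 13504 and 12924 of all 24421 genes. After etoposide 32 were detected in Null and 19 in DKO MEFs, beside 15642 and 14523 of all genes. In untreated Null MEFs all 11 genes of cluster a were detected, with 9 of 10 in cluster b, 3 of 9 in cluster c and 7 of 9 in cluster d. In untreated DKO MEFs the counts were 5 of 11 in cluster a, 2 of 10 in cluster b (Hoxb3 and Hoxb6), 0 of 9 in cluster c and 7 of 9 in cluster d. Of the 39 Hox genes, 12 had no count in any untreated DKO library, beside 8221 of all 24421 genes. In the untreated Null libraries 3 had none (Hoxb1, Hoxc8 and Hoxd1), beside 7542 of all genes. The 12 are thus near the share of all genes, and the 3 are under it. Hoxd1 was at or below the floor in every library of all 4 groups, and so was Hoxc11. The floors and the intervals given with count ratios cover counting error only.

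**Figure D1:**
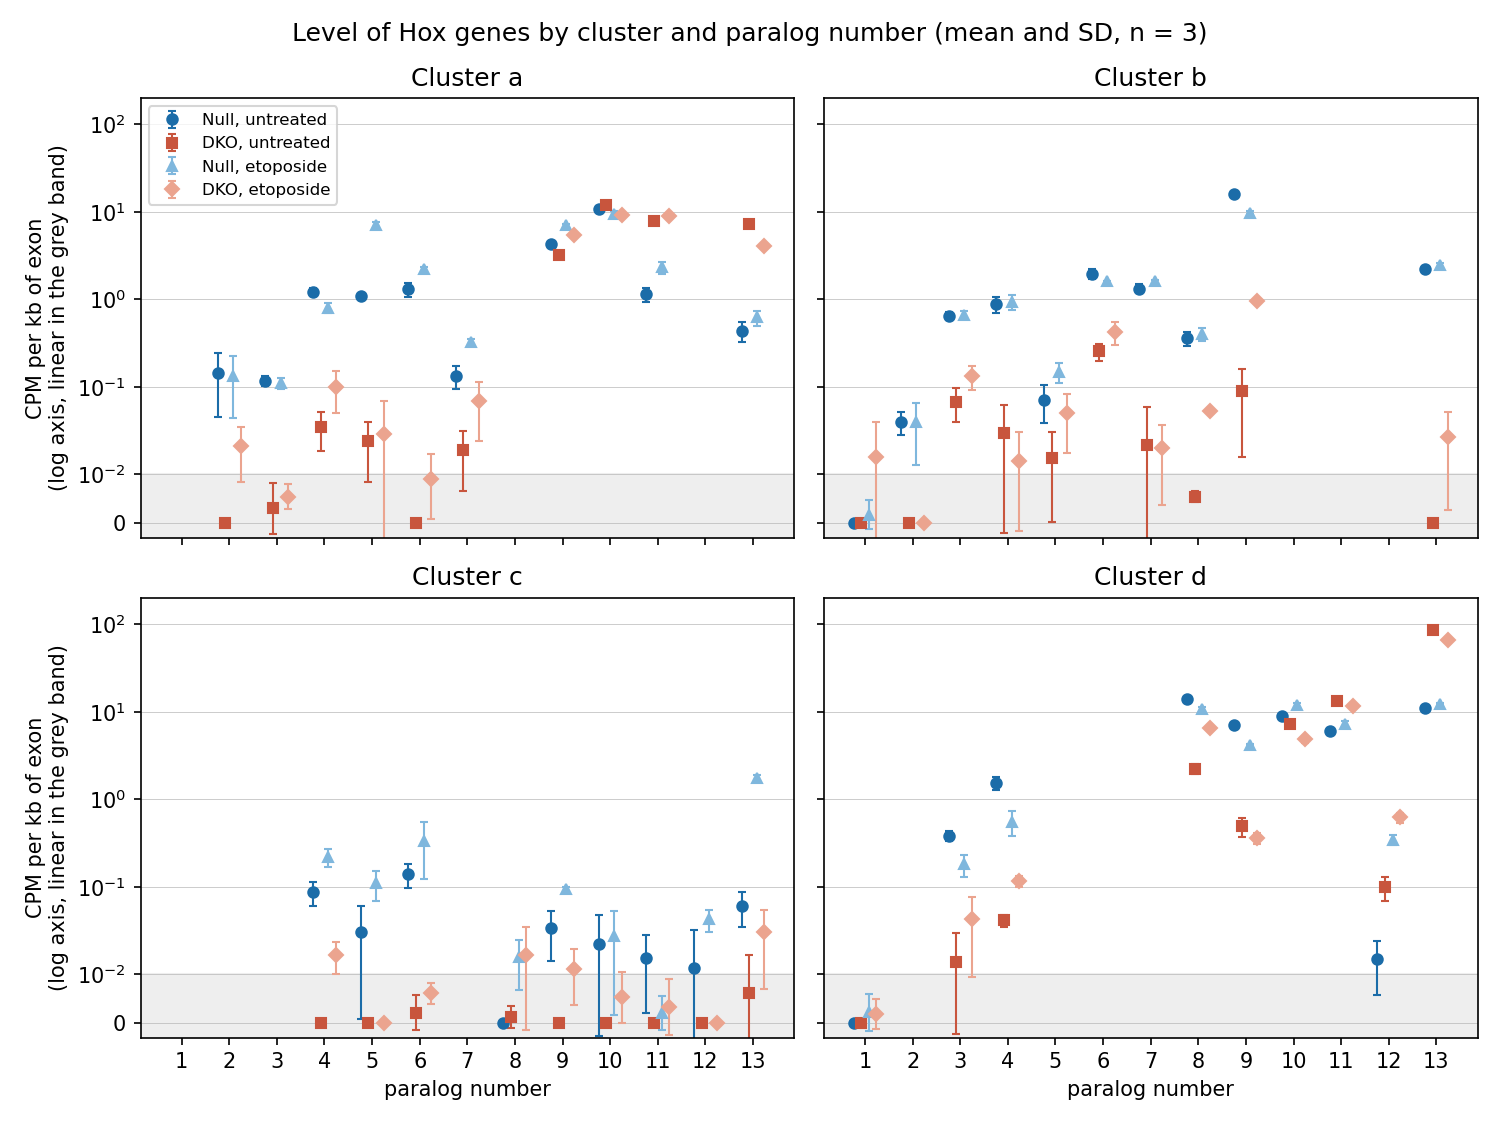
Level of Hox genes in CPM per kb of exon (vertical, log axis that is linear in the grey band below 0.01) against paralog number (horizontal), in 1 panel per cluster, as the mean and SD of 3 libraries in each of 4 groups. In clusters b and c the DKO points lie below the Null points at nearly every position with a measurable level (Hoxb1 and Hoxc8 have few or no counts), and in clusters a and d the order changes at the high paralog numbers, up to Hoxd13 at 86.6 CPM per kb in untreated DKO MEFs.

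Levels of different genes were compared per length, as CPM per kb of summed exon length. Summed over the 39 genes, the level was 94.1 ± 3.72 CPM per kb in untreated Null and 141 ± 3 CPM per kb in untreated DKO MEFs (SD, n = 3 each), and 99.6 ± 1.62 and 119 ± 1.36 CPM per kb after etoposide. In untreated Null MEFs cluster d held 51.3 to 52.5% of this sum in the 3 libraries, cluster b 24.8 to 25.5%, cluster a 22.3 to 22.9% and cluster c 0.413 to 0.433%. In untreated DKO MEFs cluster d held 77.6 to 78.4%, cluster a 21.2 to 22.1%, cluster b 0.256 to 0.398% and cluster c at most 0.017%. Hox RNA as a whole was thus not lower in the DKO line on this scale, and its make-up differed. Hoxd13 carried this, at 11.1 CPM per kb in untreated Null and 86.6 CPM per kb in untreated DKO MEFs. Without Hoxd13 the sum was lower in untreated DKO than in untreated Null MEFs. Bulk RNA cannot tell fewer cells with a gene's RNA from less RNA in each cell.

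Within untreated Null MEFs the order per kb began with Hoxb9 at 16.1 ± 0.505, Hoxd8 at 13.9 ± 0.7, Hoxd13 at 11.1 ± 0.57, Hoxa10 at 10.8 ± 0.83 and Hoxd10 at 8.9 ± 0.604 CPM per kb (SD, n = 3). Hoxd13 and Hoxa10 overlapped and the other neighbours in this order did not. In untreated DKO MEFs it began with Hoxd13 at 86.6 ± 1.52, Hoxd11 at 13.4 ± 0.409, Hoxa10 at 12 ± 0.676, Hoxa11 at 7.82 ± 0.0781, Hoxd10 at 7.32 ± 0.0678 and Hoxa13 at 7.23 ± 0.752 CPM per kb (SD, n = 3). Hoxd10 and Hoxa13 overlapped there. Hoxb9, the most abundant Hox gene of untreated Null MEFs, stood at 0.0887 ± 0.0728 CPM per kb in untreated DKO MEFs.

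The division that follows was drawn after the values were seen and is given as a description. The 7 genes of clusters a and d with paralog numbers 10 to 13 summed to 39.6, 36.1 and 39.3 CPM per kb in the untreated Null libraries and to 137, 135 and 131 CPM per kb in the untreated DKO libraries. They held 40.2 to 41.1% of all Hox RNA in untreated Null and 94.8 to 95.4% in untreated DKO MEFs on this scale. The 13 genes of clusters a and d with numbers 1 to 9 summed to 32.4, 30.4 and 32.5 CPM per kb in untreated Null and to 6.33, 5.92 and 6.64 in untreated DKO MEFs. The 19 genes of clusters b and c summed to 24.3, 23.3 and 24.5 CPM per kb in untreated Null and to 0.393, 0.534 and 0.55 in untreated DKO MEFs. In each of these 3 sums the untreated groups lay apart.

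**Figure D2:**
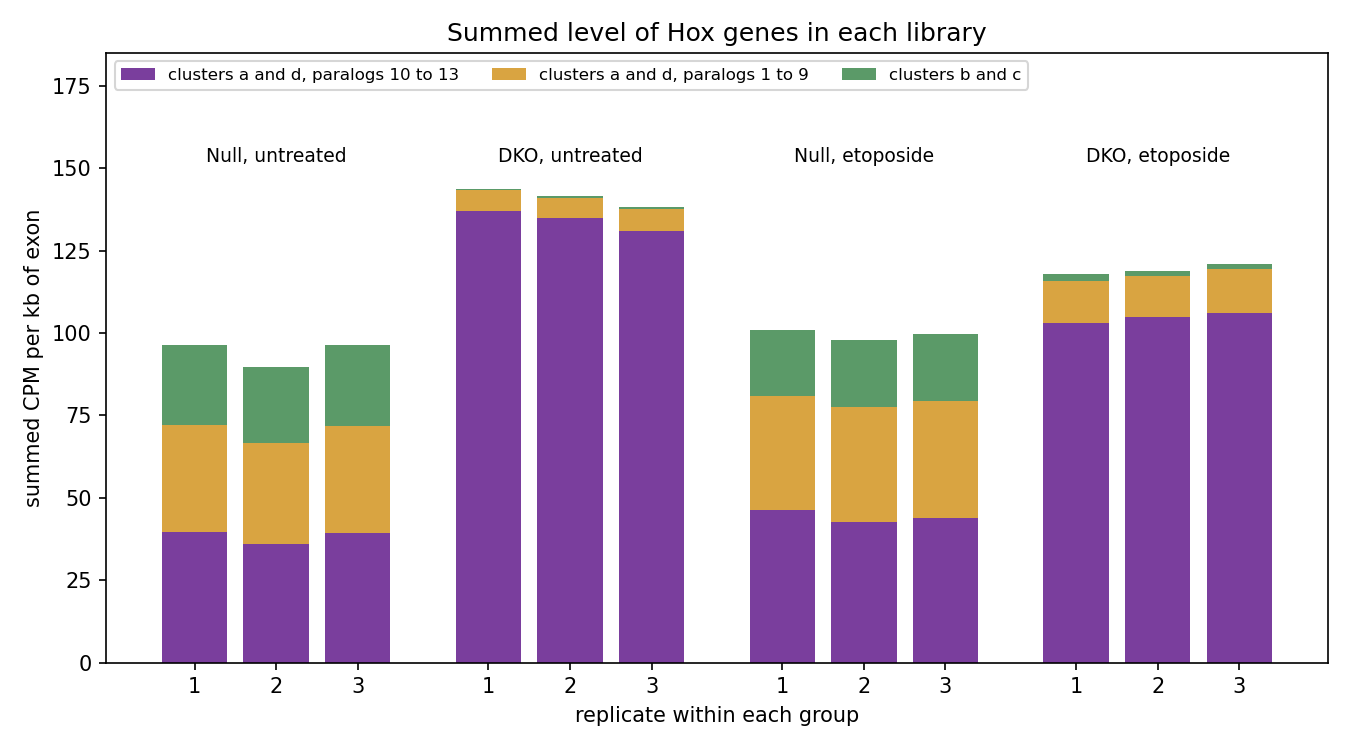
Summed level of the 39 Hox genes in each of the 12 libraries in CPM per kb of exon (vertical), with bars stacked by clusters a and d with paralogs 10 to 13, clusters a and d with paralogs 1 to 9, and clusters b and c, and with the replicates of the 4 groups side by side (horizontal). In the untreated DKO libraries the first set makes up 131 to 137 of 138 to 144 CPM per kb, and in the untreated Null libraries 36.1 to 39.6 of 89.8 to 96.3.

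The first comparison asked how DKO MEFs differ from Null MEFs without treatment. The quasi-likelihood test of edgeR, adjusted by the Benjamini-Hochberg method, was run on the 15220 genes that passed its expression filter, 33 of the 39 Hox genes among them. Hoxb1, Hoxc8, Hoxc10, Hoxc11, Hoxc12 and Hoxd1 did not pass and were not tested. A gene that passed through a high level in 1 group alone had to differ, so the share of tested Hox genes that were called supports nothing by itself. With 3 libraries on each side the smallest two-sided p of an exact permutation test is 0.1, so the p-values given are those of edgeR. The labels do not state that replicates were separate cultures, so the p-values measure only the spread between these samples. At an adjusted p under 0.05, 6 Hox genes were higher and 27 lower in DKO MEFs. Of all genes tested, 66.7% were called, 33.3% higher and 33.4% lower. By fitted values at least 2-fold differences were found for 5 Hox genes higher and 25 lower, against 7.67% and 10.8% of all genes tested, and Hoxc9 among the 25 has a bound of only 1.92-fold. The median log2 fold change was -4.68 over the tested Hox genes, or -2.73 with genes of a group at 0 set to their bound, and -0.02 over all genes tested. The libraries did not overlap for 32 of the 33, against 70.5% of all genes tested, and chance gives 10% for 3 against 3 libraries. Single libraries decided 2 further calls: Hoxb5 was not past the threshold without untreated Null replicate 1 (log2 fold change -1.95) or untreated DKO replicate 2 (-1.69), and Hoxc5 without untreated Null replicate 3 (fitted value -4.68) or untreated DKO replicate 2 (-5.74).

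The direction followed cluster and position. In cluster a, Hoxa2 to Hoxa9 were lower in DKO MEFs and Hoxa10, Hoxa11 and Hoxa13 were higher. In cluster d, Hoxd3 to Hoxd10 were lower, 5 of the 5 tested, and Hoxd11, Hoxd12 and Hoxd13 were higher. In cluster b all 9 tested genes and in cluster c all 5 tested genes were lower, the high paralog numbers included. These directions held under library size alone and under DESeq2's size factors. Only Hoxa10, at a log2 fold change of 0.16, fell short of the threshold when library size alone was used (0.04, edgeR adjusted p = 0.613). Along cluster a the log2 fold change was -0.41 at Hoxa9, 0.16 at Hoxa10, 2.79 at Hoxa11 and 4.07 at Hoxa13 (standard errors 0.06, 0.06, 0.11 and 0.14). Along cluster d it was -2.66 at Hoxd8, -3.89 at Hoxd9, -0.28 at Hoxd10, 1.15 at Hoxd11, 2.68 at Hoxd12 and 2.97 at Hoxd13 (standard errors 0.08, 0.12, 0.07, 0.07, 0.61 and 0.04).

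**Figure D3:**
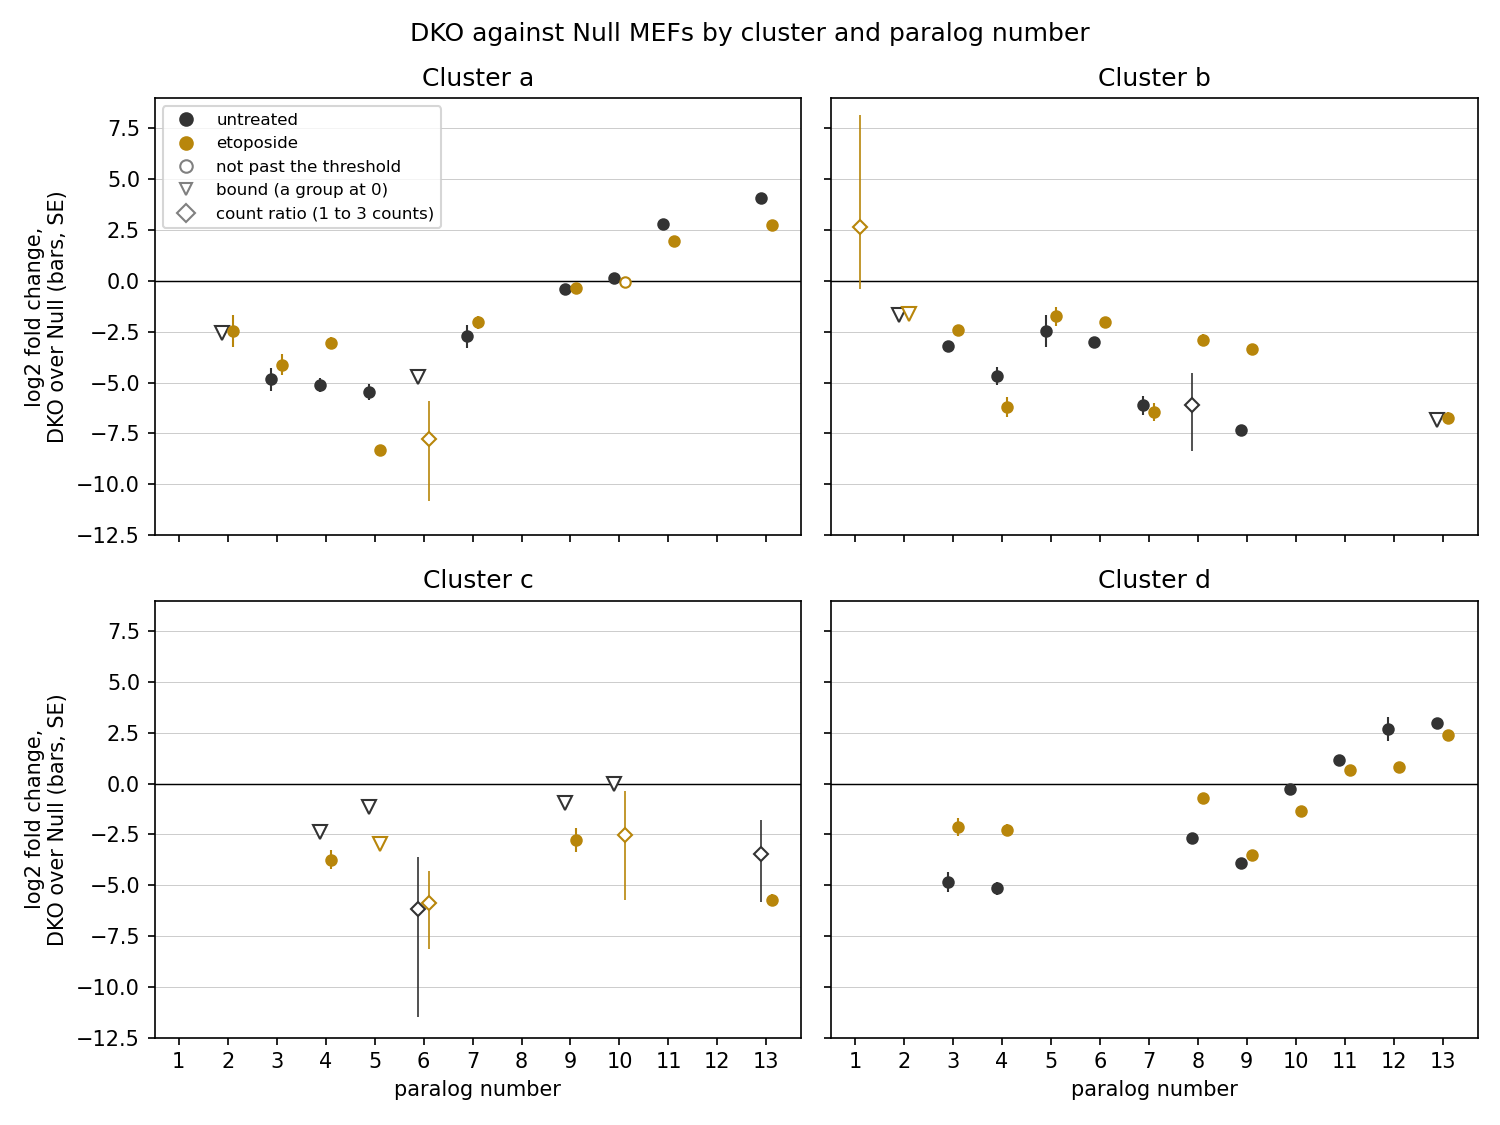
Difference between DKO and Null MEFs as a log2 fold change (vertical, bars are standard errors) against paralog number (horizontal), in 1 panel per cluster, untreated in black and after etoposide in gold. Triangles are lower bounds where a group had no count, diamonds are count ratios with a 95% counting interval where a group had 1 to 3 counts in all, and open circles missed the threshold. In clusters a and d the untreated values run from below 0 at Hoxa9 and Hoxd10 to 4.07 at Hoxa13 and 2.97 at Hoxd13, and every tested gene of clusters b and c is below 0.

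Hoxd13, the gene at the far end of cluster d with a role in digits and the tail end of the body, was measured at 29.1, 26.9 and 26.4 CPM in the untreated Null libraries and 219, 216 and 211 CPM in the untreated DKO libraries. With etoposide its levels were 30.1, 31 and 31.2 CPM in Null and 156, 166 and 165 CPM in DKO MEFs. All 6 DKO libraries were far above all 6 Null libraries. The untreated difference was 7.82-fold, a log2 fold change of 2.97 (standard error 0.04, edgeR adjusted p = 7.18e-19). Hoxa13, its counterpart in cluster a, was named after its values were seen. Its levels were 0.786, 1.15 and 1.31 CPM in untreated Null, 20, 17.2 and 16.5 CPM in untreated DKO, 1.7, 1.2 and 1.74 CPM in Null after etoposide and 10.2, 9.78 and 10.5 CPM in DKO after etoposide. The DKO libraries were again above the Null libraries throughout, by 16.8-fold without etoposide (log2 fold change 4.07, standard error 0.14, edgeR adjusted p = 4.58e-14).

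Hoxa11 and Hoxd11, which act together in the forearm and lower leg, were also named after their values were seen. Hoxa11 had 2.15, 3.06 and 2.64 CPM in untreated Null and 17.7, 18.1 and 17.9 CPM in untreated DKO libraries. Hoxd11 had 26.2, 22.7 and 27.3 CPM in untreated Null and 57.4, 57 and 54.3 CPM in untreated DKO libraries. For both genes the untreated DKO libraries were higher without overlap. Hoxd12 was scarce, with 3, 1 and 4 counts in the untreated Null and 11, 25 and 19 counts in the untreated DKO libraries.

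Hoxa10, the most abundant gene of cluster a, had 35.8, 32.2 and 37.5 CPM in untreated Null, 41.2, 39.9 and 36.9 CPM in untreated DKO, 32.5, 27.8 and 31.7 CPM in Null after etoposide and 29.3, 29.6 and 31.1 CPM in DKO after etoposide. The untreated groups overlapped, and so did the groups after etoposide. The untreated difference passed the threshold (log2 fold change 0.16, standard error 0.06, edgeR adjusted p = 0.0373). It did not without untreated Null replicate 1 or 2 or without untreated DKO replicate 1 or 2 (edgeR adjusted p = 0.0568, 0.186, 0.162 and 0.109, log2 fold changes 0.17, 0.10, 0.12 and 0.14), nor with the stricter filter (0.15, edgeR adjusted p = 0.0549), with a range of 0.0165 to 0.613 over all alternatives.

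Hoxb9, the most abundant gene of cluster b over all 12 libraries, was measured at 41.2, 40.4 and 42.9 CPM in untreated Null, 0.211, 0.424 and 0.0503 CPM in untreated DKO, 25, 26.3 and 24.4 CPM in Null after etoposide and 2.61, 2.39 and 2.43 CPM in DKO after etoposide. Each group was apart from each other group. The untreated difference was a log2 fold change of -7.33 (standard error 0.15, edgeR adjusted p = 4.82e-17), with 14, 39 and 3 counts in the DKO libraries. Hoxd8, in the middle of cluster d, had 39.6, 35.9 and 38.6 CPM in untreated Null, 6.08, 5.31 and 6.9 CPM in untreated DKO, 28.1, 29.2 and 31.5 CPM in Null after etoposide and 17.4, 17.3 and 18.4 CPM in DKO after etoposide. These groups were apart as well, with an untreated log2 fold change of -2.66 (standard error 0.08, edgeR adjusted p = 4.24e-15).

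Hoxb13 lies at the far end of cluster b, at a distance from the rest of that cluster. It was measured at 5.3, 4.89 and 4.56 CPM in untreated Null and had no count in any untreated DKO library, and with etoposide its levels were 5.59, 5.12 and 5.73 CPM in Null and 0.121, 0.0273 and 0.0298 CPM in DKO MEFs. Null libraries were high and DKO libraries at or near 0 under both conditions. Without etoposide Hoxb13 was at least 115-fold lower in DKO MEFs, taken against 3 counts per library (edgeR adjusted p = 1.65e-12). Hoxb13 thus stood opposite to Hoxa13 and Hoxd13, and Hoxc13 was low in the DKO line too. Hoxc13, a gene known from hair and nails and the most abundant of cluster c over all 12 libraries, had that rank through its level in Null MEFs after etoposide (1.75 CPM per kb), and in untreated Null MEFs stood at 0.0609 CPM per kb, under Hoxc6 (0.139) and Hoxc4 (0.0867). It had 14, 5 and 13 counts in untreated Null and 3, 0 and 0 counts in untreated DKO libraries, a count ratio of 11 (95% counting interval 3.45 to 56.2) lower in DKO MEFs.

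Among the low and middle paralog numbers, Hoxa5 had 2.14, 2.01 and 2.05 CPM in untreated Null and 0.0752, 0.0435 and 0.0168 CPM in untreated DKO libraries. Hoxb7 had 1.79, 2.07 and 2.29 CPM in untreated Null and 0, 0 and 0.101 CPM in untreated DKO libraries. Hoxd4 had 4.49, 3.77 and 5.25 CPM in untreated Null and 0.135, 0.13 and 0.101 CPM in untreated DKO libraries. In all 3 genes the DKO libraries were lower without overlap. The untreated log2 fold changes were -5.45 for Hoxa5, -6.12 for Hoxb7 and -5.16 for Hoxd4 (standard errors 0.40, 0.47 and 0.32, edgeR adjusted p = 1.52e-10, 8.76e-11 and 1.22e-10). Hoxb8, with 1 count in each untreated DKO library, had a count ratio of 68.2 (95% counting interval 23 to 333) lower in DKO MEFs, and Hoxa6, with none there, was at least 26.7-fold lower.

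**Figure D4:**
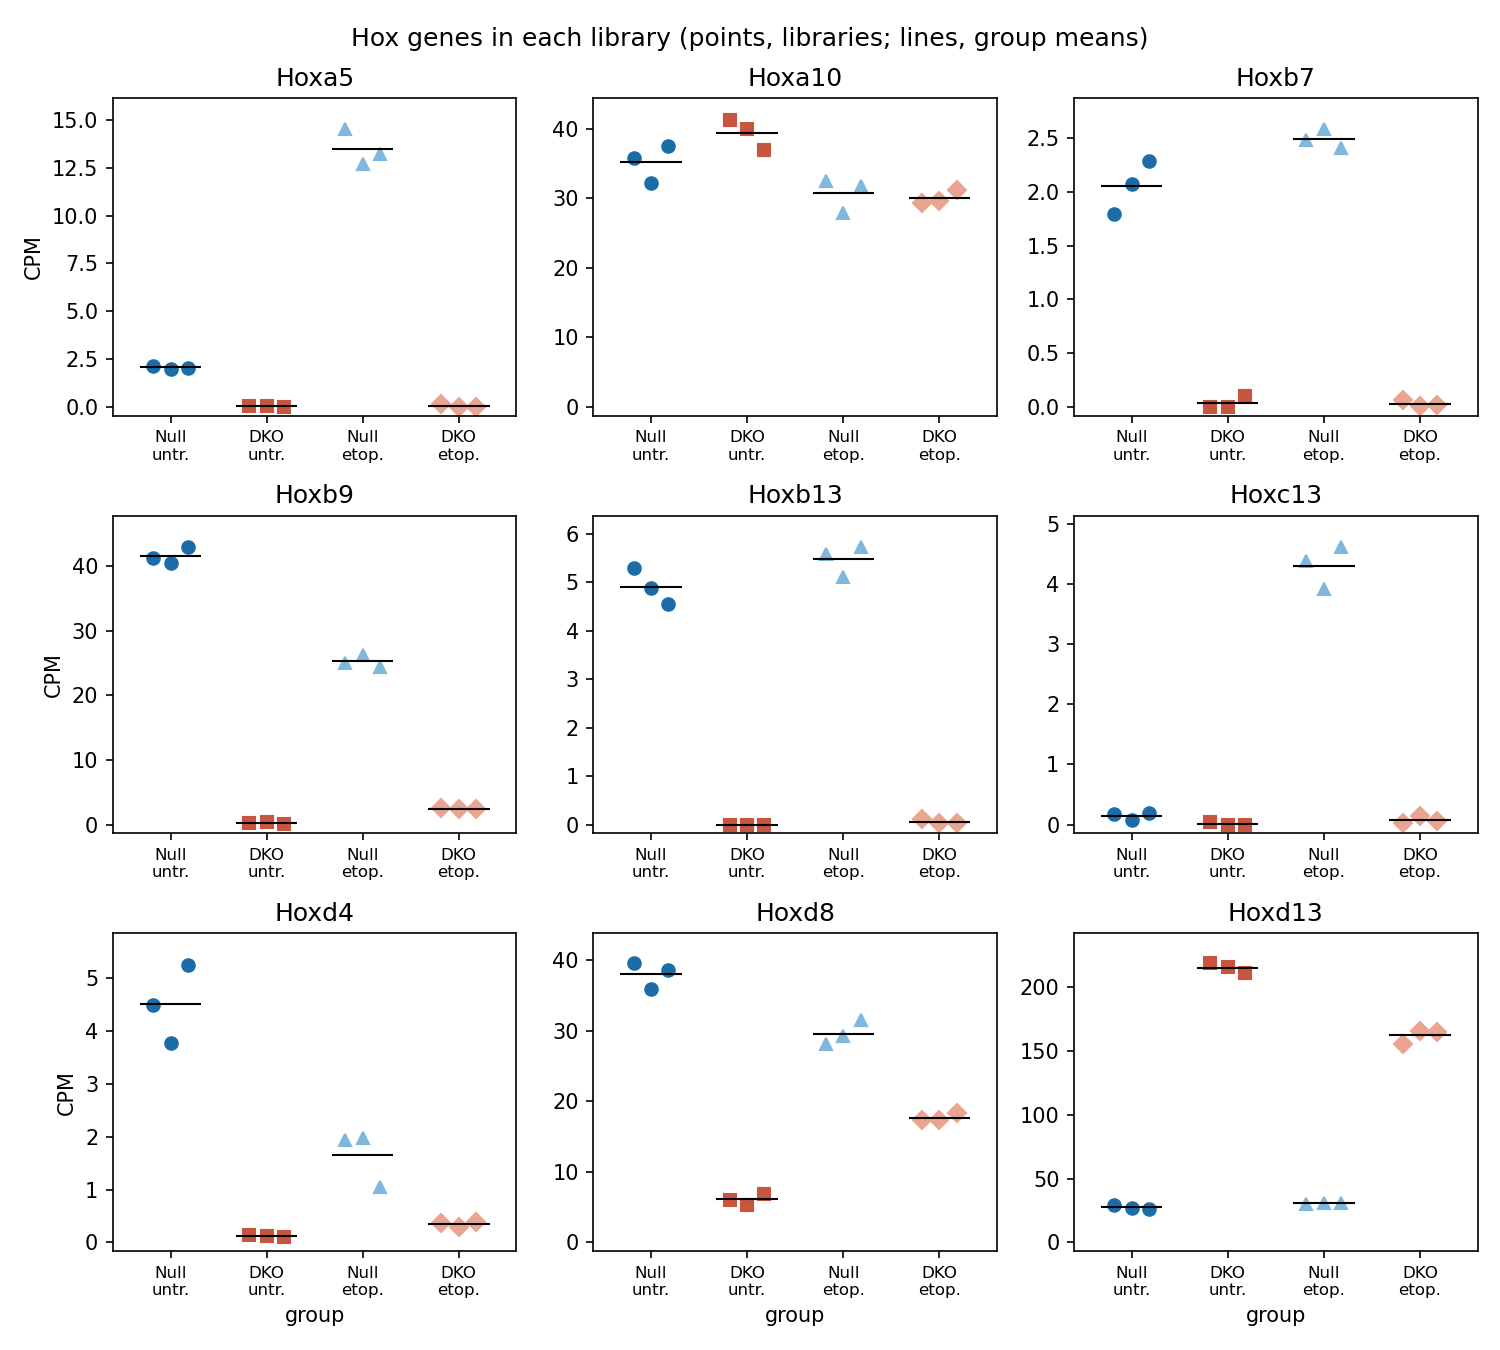
Level in CPM (vertical, linear axis) of the 9 Hox genes chosen by the naming rule in each of the 12 libraries (points), by group (horizontal), with the group mean as a line. Hoxd13 is high in DKO MEFs (156 to 219 CPM) and the other genes except Hoxa10 are lower in DKO than in Null MEFs under both conditions, with Hoxa5 and Hoxc13 at their highest in Null MEFs after etoposide.

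The promoters of Hoxd10, Hoxd11 and Hoxd13 are shown because these neighbours lie on both sides of the point in cluster d where the untreated difference changes sign, and because each holds the letters CACGTG. They were chosen after the values were seen. Promoter sequences were those of RefSeq on GRCm38.p6, from 250 bases before to 50 bases after a gene's start, and 22 of the 39 Hox genes were matched. The 250 bases before the start are printed 5′ to 3′ on the plus strand, with CACGTG in capitals, at chr2:74667975-74668224 for Hoxd13, chr2:74682073-74682322 for Hoxd11 and chr2:74691641-74691890 for Hoxd10.
Hoxd13: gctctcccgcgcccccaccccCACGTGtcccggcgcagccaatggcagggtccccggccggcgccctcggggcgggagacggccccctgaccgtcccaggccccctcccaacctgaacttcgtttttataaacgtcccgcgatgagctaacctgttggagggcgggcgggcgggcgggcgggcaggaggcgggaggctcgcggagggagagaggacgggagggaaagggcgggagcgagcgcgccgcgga
Hoxd11: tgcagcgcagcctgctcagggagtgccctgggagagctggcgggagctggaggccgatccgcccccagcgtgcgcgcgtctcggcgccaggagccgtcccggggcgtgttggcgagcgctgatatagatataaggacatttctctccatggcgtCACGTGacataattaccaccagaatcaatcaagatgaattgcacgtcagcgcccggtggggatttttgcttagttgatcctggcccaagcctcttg
Hoxd10: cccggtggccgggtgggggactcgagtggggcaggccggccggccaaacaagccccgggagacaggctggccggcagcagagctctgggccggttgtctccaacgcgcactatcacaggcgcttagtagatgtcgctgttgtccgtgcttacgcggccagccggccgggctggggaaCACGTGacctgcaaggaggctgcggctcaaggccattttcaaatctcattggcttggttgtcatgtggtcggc
The capitals begin 229, 96 and 73 bases before the RefSeq start of Hoxd13, Hoxd11 and Hoxd10. In GENCODE, used for the exon lengths, Hoxd11 spans chr2:74679557-74687016, so its printed stretch lies inside that span.

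Both strands of each whole 300-base window were searched, in 24 windows of the 22 matched Hox genes. CACGTG was found for 5 genes, Hoxd1, Hoxd4, Hoxd10, Hoxd11 and Hoxd13, and in 7.15% of all 32851 windows. TCACGTGA, which contains CACGTG, was found for Hoxd11 alone and in 0.974% of all windows. TCATGTGA, a related motif of this factor family, was found for Hoxa2 and Hoxa11 and in 0.986% of all windows. TATAAA was found for Hoxa10, Hoxb8, Hoxd4 and Hoxd13 and in 13.6% of all windows. The matched genes were 9 of cluster a, 3 of cluster b, 1 of cluster c and 9 of cluster d, so clusters b and c were hardly searched. Among the genes with CACGTG, 2 were higher and 2 lower in untreated DKO MEFs and Hoxd1 was not tested. A match is a description of letters and does not show binding.

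The second comparison set DKO against Null MEFs after etoposide and shares no library with the first. By edgeR 5 Hox genes were higher and 27 lower in DKO MEFs, where 74% of all genes tested were called, 37.5% higher and 36.6% lower (5701 and 5569 genes, but 5072 and 6096 with DESeq2's size factors and 5539 and 5706 with library size alone). At least 2-fold differences were found for 3 Hox genes higher and 25 lower, against 5.2% and 17% of all genes tested. The median log2 fold change was -2.45 over the tested Hox genes, or -2.43 with genes at their bound, and 0.00 over all genes tested. The libraries lay apart for 32 of the 33 Hox genes, against 74.7% of all genes. The genes higher in DKO MEFs were Hoxa11, Hoxa13, Hoxd11, Hoxd12 and Hoxd13. Hoxa10 did not pass (log2 fold change -0.03, standard error 0.07, edgeR adjusted p = 0.708), and the other 27 tested genes were lower. The call of Hoxa2 was lost without Null etoposide replicate 3 (log2 fold change -1.81). Hoxa5 had the largest difference by the naming rule, with 14.5, 12.7 and 13.2 CPM in Null and 0.142, 0.0137 and 0.00993 CPM in DKO MEFs after etoposide. The Null libraries were high and 2 of the DKO libraries held 1 count each, for a log2 fold change of -8.32 (standard error 0.26, edgeR adjusted p = 2.03e-16). Hoxb7 had 2.48, 2.58 and 2.41 CPM in Null and 0.0607, 0.0137 and 0.0199 CPM in DKO MEFs, with no overlap (log2 fold change -6.45, standard error 0.44, edgeR adjusted p = 8.36e-12).

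The third comparison set etoposide against untreated in Null MEFs. It shares its untreated libraries with the first and its etoposide libraries with the second. Counts spread to many silent genes after etoposide. Of the 7542 genes of the whole table with no count in untreated Null MEFs, 53% had at least 1 count after etoposide, and of the 3704 genes with no count after etoposide, 4.27% had at least 1 count without it. Reads outside annotated features made up 22.5, 24.2 and 22.9% of the untreated and 27.3, 26.3 and 25.1% of the etoposide libraries of Null MEFs. Small rises of scarce Hox genes are to be read beside these values, and their part in such rises was not tested. By edgeR 17 Hox genes were higher and 8 lower after etoposide, where 79.4% of all genes tested were called, 42.3% higher and 37.2% lower. At least 2-fold changes were found for 10 Hox genes higher and 2 lower, against 22.4% and 8.1% of all genes tested. The median log2 fold change was 0.27 over the tested Hox genes and 0.07 over all genes tested. The libraries lay apart for 22 of the 33, against 80.2% of all genes.

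By cluster, etoposide raised 7 and lowered 2 of the 11 genes of cluster a in Null MEFs. It raised 1 and lowered 2 of the 9 tested in cluster b, and raised 4 and lowered 4 of the 8 tested in cluster d. In cluster c it raised 5 of the 5 tested, and 4 of its 9 genes were not tested. Of all genes tested, 42.3% were higher and 37.2% lower. Hoxc5, Hoxc9 and Hoxc13 were scarce in all groups but Null after etoposide, so they may have passed the filter through that group alone. Their rises would then be fixed in advance and support nothing by themselves. In cluster d the genes that fell were Hoxd3, Hoxd4, Hoxd8 and Hoxd9, and those that rose were Hoxd10, Hoxd11, Hoxd12 and Hoxd13. Under limma-trend the falls of Hoxd3 (-1.09) and Hoxa4 (-0.60) were not called. The summed level of cluster a was 21.4, 20.4 and 22 CPM per kb without and 32.7, 30.1 and 31.8 CPM per kb with etoposide, and that of cluster b 23.9, 22.9 and 24.1 against 17.7, 18.1 and 17.3. The levels of cluster d overlapped, at 50.5, 46.1 and 49.8 against 48.1, 47.5 and 47.7 CPM per kb. Several of the smaller calls were lost with 1 library left out. Hoxa13 was not past the threshold without untreated Null replicate 1 or Null etoposide replicate 1 or 3 (log2 fold changes 0.31, 0.44 and 0.44), nor Hoxb5 without untreated Null replicate 2 or 3 or Null etoposide replicate 2 or 3 (0.81, 0.77, 0.85 and 0.86). Hoxb6 was lost without untreated Null replicate 1 (-0.18) or any 1 Null etoposide library (-0.30, -0.30 and -0.31). Hoxc5 was lost without untreated Null replicate 1 (1.40), Hoxc6 without that library or Null etoposide replicate 3 (0.98 and 0.75), and Hoxc9 without untreated Null replicate 3 (1.03).

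Hoxc13 had 0.172, 0.0768 and 0.201 CPM in untreated Null and 4.38, 3.92 and 4.61 CPM in Null MEFs after etoposide. The groups were far apart, and the gene went from 5 to 14 counts per library to 316 to 359 counts (log2 fold change 4.81, standard error 0.27, edgeR adjusted p = 1.23e-12). Hoxa5, a gene of the neck and chest region, rose 6.49-fold from the values given above (log2 fold change 2.70, standard error 0.13, edgeR adjusted p = 5.43e-14), with all 3 treated libraries above all untreated ones. Hoxd12 went from 1 to 4 counts to 66 to 70 counts per library (log2 fold change 4.46, standard error 0.44, edgeR adjusted p = 2.19e-08). Hoxd4 went to 1.93, 1.97 and 1.04 CPM, below every untreated Null library (log2 fold change -1.42, standard error 0.18, edgeR adjusted p = 1.09e-06). Hoxb9 fell 1.64-fold (log2 fold change -0.72, standard error 0.07, edgeR adjusted p = 1.08e-07), a change that missed the threshold under limma-trend (adjusted p = 0.235, in a range of 1.5e-23 to 0.235 over the alternatives). Hoxa10 fell with overlap (log2 fold change -0.20, standard error 0.07, edgeR adjusted p = 0.01) and did not pass without Null etoposide replicate 2 (-0.14, edgeR adjusted p = 0.0599), with the stricter filter (-0.11, edgeR adjusted p = 0.125) or with library size alone (-0.03, edgeR adjusted p = 0.657), in a range of 0.00152 to 0.657.

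**Figure D5:**
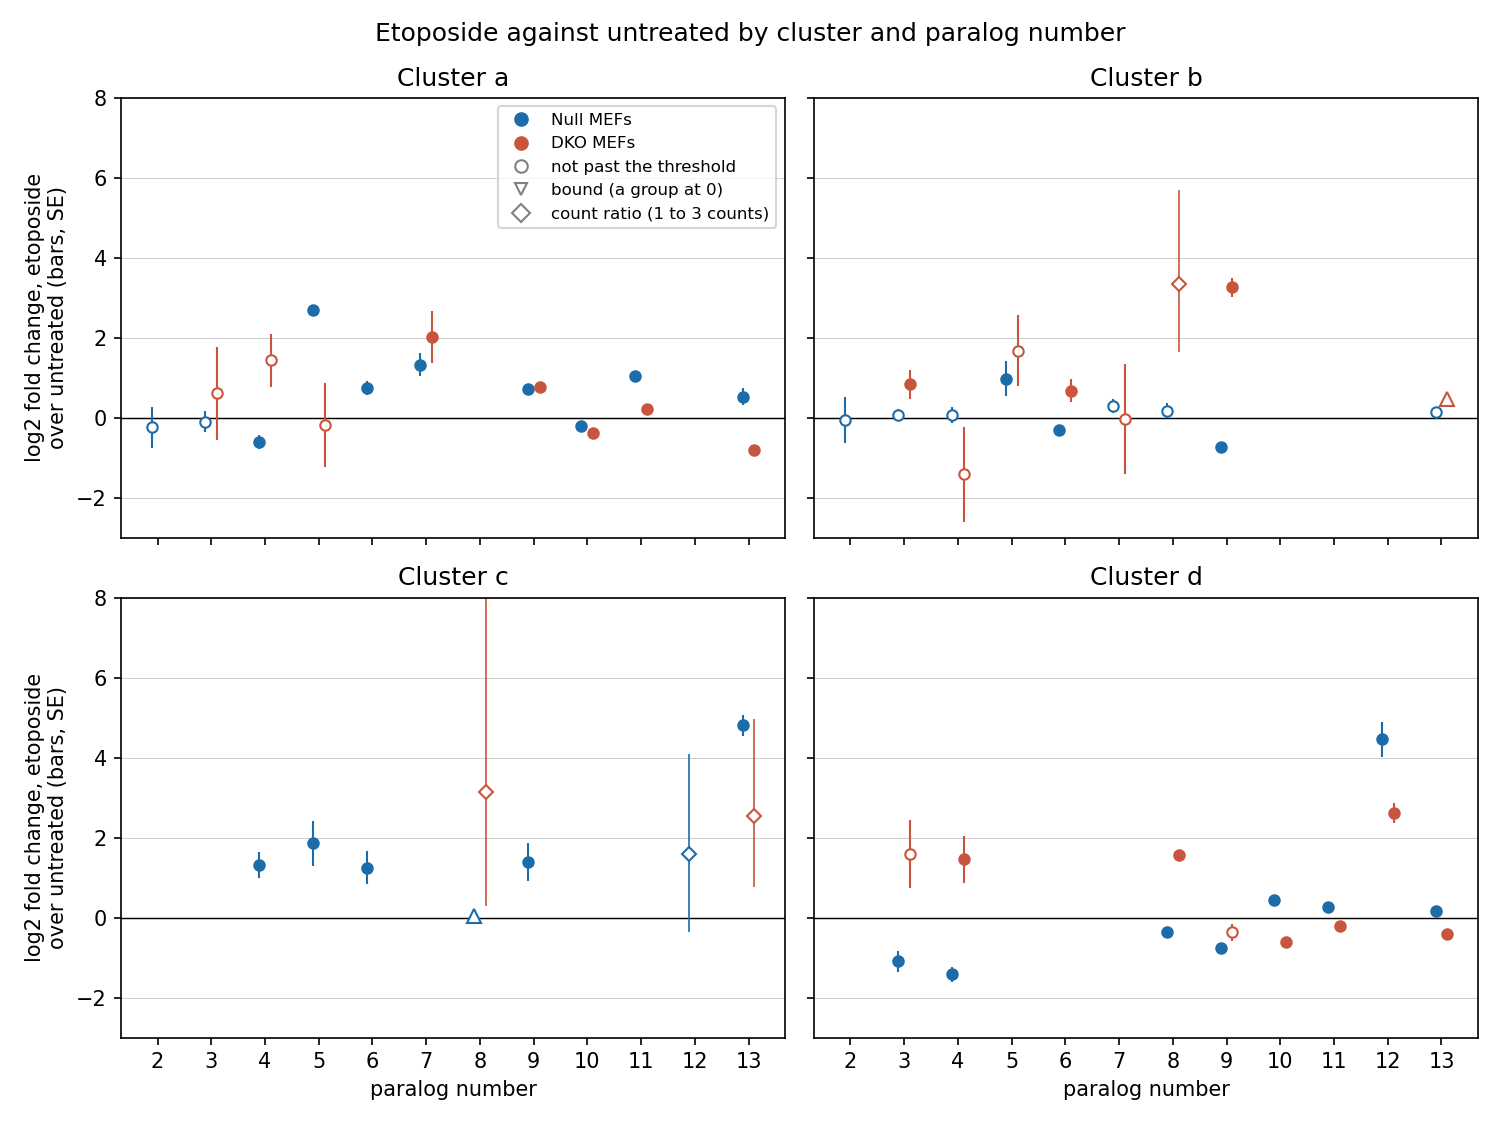
Response to etoposide as a log2 fold change (vertical, bars are standard errors) against paralog number (horizontal), in 1 panel per cluster, Null MEFs in blue and DKO MEFs in red. Triangles are lower bounds where the untreated group had no count, diamonds are count ratios with a 95% counting interval where it had 1 to 3 counts, open circles missed the threshold, and genes at or near the floor in both groups are not drawn. Hoxb9 and Hoxd8 lie below 0 in Null and above 0 in DKO MEFs, and Hoxd10 and Hoxd13 the other way round.

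The fourth comparison set etoposide against untreated in DKO MEFs. It too shares its untreated libraries with the first and its etoposide libraries with the second. A low untreated DKO level thus enters both the difference from Null MEFs and the rise with etoposide. Of the 8221 genes of the table with no count in untreated DKO MEFs, 53.2% had at least 1 count after etoposide, and of the 4010 with none after etoposide, 3.99% had at least 1 without it. Reads outside annotated features made up 21.1, 20.2 and 20.5% of the untreated and 22.3, 22.1 and 21.2% of the etoposide libraries of DKO MEFs. The part of these values in small rises of scarce Hox genes was not tested. Among the 12 Hox genes with no count in untreated DKO MEFs, 9 had at least 1 count after etoposide and none was detected by the floor. By edgeR 13 Hox genes were higher and 5 lower after etoposide, where 75.1% of all genes tested were called, 43.7% higher and 31.5% lower. By fitted values at least 2-fold changes were found for 9 Hox genes higher and 0 lower, against 17.9% and 7.93% of all genes tested. For 3 of the 9, Hoxb13, Hoxc4 and Hoxc9, the untreated group was at 0 and the bound did not reach 2-fold. The median log2 fold change was 0.84 over the tested Hox genes, or 0.48 with genes at their bound, and 0.14 over all genes tested. The libraries lay apart for 18 of the 33, against 76.1% of all genes. The count of 13 rises was not stable: it was 6 without untreated DKO replicate 2 or DKO etoposide replicate 1, and 8 without untreated DKO replicate 1 or DKO etoposide replicate 3. Hoxc4 and Hoxc9 were called higher from 9 and 7 counts in all against none, and no fold is given for them. Both were lost without any 1 untreated DKO library or DKO etoposide replicate 1 or 3. Hoxb3 was lost without untreated DKO replicate 1 or 2 or DKO etoposide replicate 1 or 2 (log2 fold changes 0.53, 1.01, 0.63 and 0.83), Hoxb6 without any of the same 4 libraries (0.61, 0.52, 0.49 and 0.67), and Hoxa7 without DKO etoposide replicate 3 (1.29).

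Hoxb9 rose in DKO MEFs from 14, 39 and 3 counts to 129, 175 and 245 counts, with every treated library above every untreated one. The log2 fold change was 3.26 (standard error 0.24, edgeR adjusted p = 1.77e-09), and the level after etoposide stayed below that of every Null library. Hoxd8 rose 2.95-fold from the values given above, without overlap (log2 fold change 1.56, standard error 0.08, edgeR adjusted p = 1.09e-11). Hoxb8, with 1 count in each untreated DKO library, had 7, 10 and 14 counts after etoposide, a count ratio of 10.1 (95% counting interval 3.15 to 51.6) higher. Hoxb13 went from no count to 6, 2 and 3 counts, at least 1.39-fold higher (edgeR adjusted p = 0.0289). This call was lost without untreated DKO replicate 1 or 2 or DKO etoposide replicate 1 (edgeR adjusted p = 0.0556, 0.0765 and 0.0686, fitted log2 values 4.90, 4.86 and 4.19), in a range of 0.000442 to 0.0765 over the alternatives. The bound for Hoxb13 rested on DKO etoposide replicate 1, since the other treated libraries were at or below the floor of 3 counts. Hoxd4 rose from 9, 12 and 6 to 18, 21 and 38 counts (log2 fold change 1.46, standard error 0.58, edgeR adjusted p = 0.0298), with no overlap in CPM. Without untreated DKO replicate 1, 2 or 3 or DKO etoposide replicate 1 or 3 the edgeR adjusted p for Hoxd4 was 0.0584, 0.0776, 0.0677, 0.0527 and 0.0959, in a range of 0.000245 to 0.0959.

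The high paralog numbers of clusters a and d moved down in DKO MEFs, with exceptions. Hoxd13 fell by 0.41 on the log2 scale, without overlap (standard error 0.04, edgeR adjusted p = 2.93e-08). Hoxa13 fell by 0.81, Hoxd10 by 0.61, Hoxa10 by 0.39 and Hoxd11 by 0.21 on the log2 scale, each without overlap. With library size alone Hoxa10 was no longer called (-0.12), Hoxd11 turned to 0.06 and was not called either, and the median of all genes moved up by 0.27. Hoxd12 rose instead, from 11, 25 and 19 to 89, 101 and 156 counts, without overlap (log2 fold change 2.61, standard error 0.25, edgeR adjusted p = 1.96e-08). Hoxa11 was called higher at a log2 fold change of 0.22 (standard error 0.08, edgeR adjusted p = 0.0239), without overlap, and missed the threshold without any 1 of the 6 DKO libraries. It also missed the threshold under DESeq2, limma-trend, no filter and the legacy fit (0.20, 0.21, 0.18 and 0.21). Hoxa5, Hoxb7 and Hoxc13 did not pass in DKO MEFs, and Hoxc13 had a count ratio of 5.86 (95% counting interval 1.71 to 31.1) higher after etoposide. For Hoxc13, at 3, 0 and 0 against 1, 10 and 7 counts with overlap, the edgeR adjusted p was 0.0764 at a fitted log2 value of 2.41, in a range of 0.00997 to 0.26 over the alternatives. It passed under DESeq2, limma-trend, library size alone and the legacy fit, and without untreated DKO replicate 1 (2.52, 1.27, 2.66, 2.40 and 5.59).

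Whether the response to etoposide differed between the genotypes was tested as the interaction in the same edgeR fit, which uses all 4 groups. The log2 response in DKO minus that in Null MEFs was called above 0 for 8 Hox genes and below 0 for 8, where 54% of all genes tested were called, 29.6% above and 24.4% below. These were 4507 and 3719 genes, a balance that reversed with DESeq2's size factors (3797 and 4192). By fitted values the responses differed at least 2-fold for 7 Hox genes above and 4 below 0, against 4.2% and 8.41% of all genes tested, and that of Hoxb13 among the 7 has no bound. The median was 0.39 over the tested Hox genes and 0.05 over all genes tested, the latter -0.02 with DESeq2's size factors. Hoxa4, Hoxb6, Hoxb8, Hoxb9, Hoxb13, Hoxd3, Hoxd4 and Hoxd8 were called above 0, and those called below 0 included Hoxa5, Hoxa11, Hoxa13, Hoxd10, Hoxd11, Hoxd12 and Hoxd13. Of the 7 genes of clusters a and d with numbers 10 to 13, 6 were called below 0, and of the 14 tested genes of clusters b and c, 4 were called above 0. Hoxb9 had an interaction of 3.97 (standard error 0.25, edgeR adjusted p = 5.85e-10), as it fell in all 3 treated Null libraries and rose in all 3 treated DKO libraries. Hoxd8 had an interaction of 1.93 (standard error 0.10, edgeR adjusted p = 7.52e-11), with the same directions in all libraries. Hoxd13 had an interaction of -0.57 (standard error 0.06, edgeR adjusted p = 1.72e-07), with the treated libraries higher in Null and lower in DKO MEFs. Hoxc13 was called higher with etoposide in Null MEFs alone, but its interaction was not called. The fitted value was -2.40 (standard error 1.97, edgeR adjusted p = 0.328, in a range of 0.000237 to 0.681 over the alternatives). It passed under DESeq2 and limma-trend. Hoxa9 rose in both lines, with log2 fold changes of 0.73 and 0.76 and an interaction of 0.03 (standard error 0.08, edgeR adjusted p = 0.753; -0.03 with DESeq2's size factors), no library of a treated group overlapping its untreated group.

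Some neighbours and cluster transcripts differed beside the high paralog numbers. Evx2, the homeobox gene next to Hoxd13, had 0.172, 0.169 and 0.201 CPM in untreated Null and 2.65, 2.74 and 3.42 CPM in untreated DKO libraries. Hottip, a noncoding RNA beyond Hoxa13, had 0.0614, 0.2 and 0.17 CPM in untreated Null and 3.7, 3.64 and 3.57 CPM in untreated DKO libraries. Both were higher in DKO MEFs without overlap, 16-fold for Evx2 (log2 standard error 0.30, edgeR adjusted p = 1.67e-09) and 26.2-fold for Hottip (standard error 0.26, edgeR adjusted p = 3.04e-11). Hoxa11os, antisense to Hoxa11, had a log2 fold change of 2.88 (standard error 0.09, edgeR adjusted p = 1.55e-14), with 3.85, 2.89 and 3.61 against 25, 27.1 and 24.3 CPM. Hoxa11 and Hoxa11os share exon sequence on opposite strands, and the strand setting of the counting is not stated, so reads of one may have been counted for the other. Other genes of the clusters share exon sequence too, Hoxd3 and Hoxd4 on the same strand among them.

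Of 20 noncoding genes of the clusters 16 were in the table and 6 were tested. In DKO against Null MEFs 2 were higher and 4 lower, both without treatment (median log2 fold change -1.51) and after etoposide (-1.28), where 66.7% and 74% of all genes tested were called. Etoposide raised 2 and lowered 1 in Null MEFs (0.31) and lowered 2 in DKO MEFs (0.12, or 0.24 at the bound), and the interaction was called above 0 for 1 and below for 2 (-0.02), against 79.4, 75.1 and 54% of all genes. Of 17 genes at the cluster boundaries 16 were in the table and 15 were tested. There 6 were higher and 6 lower in untreated DKO MEFs (0.04), 6 higher and 4 lower in DKO MEFs after etoposide (0.05), 5 higher and 8 lower after etoposide in Null MEFs (-0.12), and 4 higher and 5 lower after etoposide in DKO MEFs (-0.02), with an interaction called above 0 for 5 and below for 2 (0.13). Of all genes 66.7, 74, 79.4, 75.1 and 54% were called in these 5 comparisons. The first 4 of these boundary medians changed sign with the scaling: with library size alone they were -0.08, 0.03, 0.04 and 0.25, and with DESeq2's size factors the second was -0.01. Hibadh, an enzyme gene near cluster a, differed by 0.88 after etoposide and Cbx5, a heterochromatin protein gene near cluster c, by -0.83 in Null MEFs with etoposide. Of 8 related homeobox genes Evx2 alone was tested. It was higher in DKO MEFs under both conditions (16-fold and 6.49-fold), lower after etoposide in DKO MEFs (-0.61), not past the threshold in Null MEFs (0.69), and below 0 in the interaction (-1.30). The medians over all genes tested, given with each comparison above, were -0.02, 0.00, 0.07, 0.14 and 0.05 (the last -0.02 with DESeq2's size factors).

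TALE proteins such as Meis bind DNA together with Hox proteins. All 9 of these genes were tested, and 2 were higher and 7 lower in untreated DKO MEFs (median log2 fold change -0.75), 4 higher and 5 lower in DKO MEFs after etoposide (-0.39), 3 higher and 4 lower with etoposide in Null MEFs (0.07), and 5 higher and 3 lower with etoposide in DKO MEFs (0.36), with an interaction called above 0 for 3 and below for 2 (0.03, but -0.03 with DESeq2's size factors). In the same order 66.7, 74, 79.4, 75.1 and 54% of all genes were called, the first as 33.3% higher and 33.4% lower. Meis2 had 5.92, 7.21 and 6.69 CPM in untreated Null and 1.19, 1.04 and 0.587 CPM in untreated DKO libraries, lower without overlap (log2 fold change -2.77). Pknox2 differed the other way (2.26).

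Polycomb proteins hold Hox genes silent and trithorax proteins keep them active. Of 31 polycomb genes, all tested, 7 were higher and 14 lower in untreated DKO MEFs (median log2 fold change -0.06) and 12 higher and 10 lower in DKO MEFs after etoposide (0.06), against 66.7% and 74% of all genes called. With etoposide 5 were higher and 21 lower in Null MEFs (-0.42) and 6 higher and 19 lower in DKO MEFs (-0.25, but 0.03 with library size alone), with an interaction called above 0 for 12 and below for 8 (0.13), against 79.4, 75.1 and 54% of all genes. The largest changes in Null MEFs with etoposide among those called were those of Scmh1 (2.29), Pcgf5 (-1.32) and Cbx2 (1.14). Of 22 trithorax and MLL complex genes, all tested, 10 were higher and 9 lower in untreated DKO MEFs (0.11, but -0.01 with library size alone) and 15 higher and 3 lower in DKO MEFs after etoposide (0.27), beside the same 66.7% and 74%. With etoposide 2 were higher and 18 lower in Null MEFs (-0.54) and 3 higher and 12 lower in DKO MEFs (-0.13, but 0.14 with library size alone), with an interaction called above 0 for 12 and below for 2 (0.27), beside the same 79.4, 75.1 and 54%. Aff1 changed by -2.05 in Null MEFs, and Mllt3 and Dot1l by -1.62 and -1.46 in DKO MEFs, with etoposide.

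Retinoic acid switches on Hox genes of low paralog number in the embryo. Of 17 genes of its synthesis and sensing 15 were tested, and 7 were higher and 1 lower in untreated DKO MEFs (median log2 fold change 0.48, or 0.55 at the bound) and 4 higher and 6 lower in DKO MEFs after etoposide (-0.55), where 66.7% and 74% of all genes were called. With etoposide 5 were higher and 5 lower in Null MEFs (-0.09, but 0.07 with library size alone) and 5 higher and 9 lower in DKO MEFs (-0.75), with an interaction called above 0 for 1 and below for 8 (-0.60), where 79.4, 75.1 and 54% of all genes were called. Stra6, a receptor for the retinol carrier, had no count in untreated DKO MEFs, where it was at least 5.07-fold lower than in untreated Null MEFs, and was at least 10.6-fold higher in DKO MEFs with etoposide. Dhrs3, an enzyme that turns retinal back to retinol, fell with etoposide in DKO MEFs (-2.86), and Aldh1a3, which makes retinoic acid, had an interaction of -2.62.

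Markers of other cell types were read beside the Hox genes, and their part in the Hox differences was not tested. Of the 16 fibroblast markers 13 were higher and 2 lower in untreated DKO MEFs (median log2 fold change 0.89) and 12 higher and 2 lower after etoposide (0.75), and with etoposide 1 was higher and 12 lower in Null MEFs (-0.90) and 1 higher and 14 lower in DKO MEFs (-1.11), with an interaction called above 0 for 4 and below for 6 (-0.03, but 0.08 with library size alone). Of all genes tested, 33.3% were higher and 33.4% lower in untreated DKO MEFs, 37.5% and 36.6% in DKO MEFs after etoposide, 42.3% and 37.2% with etoposide in Null MEFs, and 43.7% and 31.5% with etoposide in DKO MEFs, with 29.6% above and 24.4% below 0 in the interaction, and these shares stand beside the counts of each marker list that follows. The summed level of the fibroblast markers was 4256, 4163 and 4161 CPM in Null and 5684, 5766 and 5447 CPM in DKO MEFs after etoposide, with S100a4 the most abundant per kb. Thy1, a surface marker, was at 4.5, 4.1 and 4.03 CPM in untreated Null and 0.0602, 0.0326 and 0.0168 CPM in untreated DKO libraries, while Postn and Pdgfra were higher in DKO MEFs (4.10 and 3.24).

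The 7 epithelial markers summed to 17.1, 15.8 and 16.2 CPM in untreated Null, 36.3, 37.8 and 36.1 CPM in untreated DKO, 23.2, 23.7 and 26 CPM in Null after etoposide and 16, 16.7 and 16.5 CPM in DKO after etoposide, with Krt19 the most abundant per kb and Esrp1 at 0 in both untreated groups. Of these 2 were higher and 2 lower in untreated DKO MEFs, 0 higher and 3 lower in DKO MEFs after etoposide, 4 higher and 1 lower with etoposide in Null MEFs, and 3 higher and 2 lower with etoposide in DKO MEFs. The 6 endothelial markers summed to 1.28, 1.41 and 1.64 CPM in untreated Null, 14.3, 17 and 16.4 CPM in untreated DKO, 6.88, 6.86 and 6.13 CPM in Null after etoposide and 5.83, 5.11 and 5.77 CPM in DKO after etoposide, with Erg the most abundant per kb and Cdh5 at 0 in untreated DKO MEFs. Of these 1 was higher and 0 lower in untreated DKO MEFs, 1 higher and 3 lower in DKO MEFs after etoposide, 6 higher and 0 lower with etoposide in Null MEFs, and 5 higher and 1 lower with etoposide in DKO MEFs. Erg made up nearly the whole untreated DKO sum, at 14.1, 17 and 16.2 CPM, against 1.01, 1.26 and 1.41 CPM in untreated Null. The median untreated log2 fold change over the 6 endothelial markers was -0.41, or 0.08 at the bound. The 6 leukocyte markers summed to 17.8, 19.3 and 16.1 CPM in untreated Null, 9.31, 7.88 and 7.55 CPM in untreated DKO, 78.1, 77.6 and 77.5 CPM in Null after etoposide and 14.7, 12.3 and 14.9 CPM in DKO after etoposide, with Cd14 the most abundant per kb and Adgre1 at 0 in both untreated groups. Of the 5 tested, 1 was higher and 1 lower in untreated DKO MEFs, 0 higher and 2 lower in DKO MEFs after etoposide, 5 higher with etoposide in Null MEFs and 4 higher with etoposide in DKO MEFs.

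The 6 neural markers summed to 104, 106 and 107 CPM in untreated Null, 111, 106 and 109 CPM in untreated DKO, 99.4, 96.2 and 101 CPM in Null after etoposide and 71.4, 73.4 and 76.3 CPM in DKO after etoposide, with Tubb3 the most abundant per kb of summed exon in each group (Map2 in untreated DKO MEFs with the longest transcript as length) and Rbfox3 at 0 in untreated DKO MEFs. Of these 1 was higher and 2 lower in untreated DKO MEFs, 1 higher and 3 lower in DKO MEFs after etoposide, 4 higher and 2 lower with etoposide in Null MEFs, and 2 higher and 2 lower with etoposide in DKO MEFs. The similar untreated sums held opposite differences. Tubb3 was lower in untreated DKO MEFs (log2 fold change -1.88), and Map2 had a mean of 92.5 CPM there and 44 CPM in untreated Null. The 6 muscle markers summed to 3, 3.03 and 3.43 CPM in untreated Null, 3.9, 4.6 and 3.86 CPM in untreated DKO, 34.4, 38.8 and 39.8 CPM in Null after etoposide and 4.82, 3.88 and 4.81 CPM in DKO after etoposide, with Des the most abundant per kb in Null MEFs after etoposide and Acta1 in the other 3 groups, Myod1 and Myog at 0 in both untreated groups and Myf5 at 0 in every library. Of the 3 tested, 1 was higher and 1 lower in untreated DKO MEFs, 1 higher and 2 lower in DKO MEFs after etoposide, and 2 higher and 1 lower with etoposide in each line. The 4 pluripotency markers summed to 0.894 ± 0.126 CPM in untreated Null, 0.367 ± 0.15 CPM in untreated DKO, 0.835 ± 0.197 CPM in Null after etoposide and 0.339 ± 0.118 CPM in DKO after etoposide (SD, n = 3 each), with Nanog, the 1 gene tested, lower in DKO MEFs under both conditions (-1.38 and -1.33) and Zfp42 and Dppa5a at 0 in both untreated groups.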

How the data were processed

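The authors deposited raw counts of read pairs per gene from ribosome-depleted stranded total RNA, aligned with HISAT2, with no normalization, the versions and strand setting not stated, and the counting tool given as featureCounts in the labels and as HTSeq in the methods. Reads outside genes (no feature, 20.2 to 27.3%) were left out of library sizes. From the deposited counts, CPM were computed with TMM scaling, and CPM per kb with exon lengths of GENCODE M21 on GRCm38, in which 23350 symbols of the table matched directly, 674 by synonym and 397 not at all. All 12 libraries were fitted in edgeR 4.0.16 (R 4.3.3) by its quasi-likelihood test after its filter by group, with Benjamini-Hochberg adjustment over all genes tested and a threshold of 0.05. Replicate numbers did not pair between groups (correlations of -0.032 to 0.043 for the same number), so no pairs were fitted. Folds against a group at 0 are bounds at 3 counts per library. Values in every library are given for the most abundant Hox gene per kb of each cluster and, in each of 5 comparisons, for the 3 called genes with the largest log2 fold change, a mean level over all libraries not under 1 CPM and, in comparisons of groups, replicates that lay apart. The members and lists (TALE cofactors, related homeobox genes, retinoic acid, polycomb, trithorax, boundary genes, noncoding genes and 7 sets of cell type markers) were chosen with earlier results of these data known. Alternatives were DESeq2 1.42.0, limma-trend (limma 3.58.1), DESeq2's size factors, library size alone, no filter, a stricter filter (mean not under 1 CPM), a replicate block, a fit to the 6 libraries compared, each library left out, the longest transcript as length, and edgeR's legacy fit, the last chosen after seeing the data. The fits were tested on simulated data. Individual values of some genes are not reported here, in the text or in the plots.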

Additional observations from a re-analysis of the deposited data

Results flagged for a closer look

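For several Hox genes the response to etoposide differed between DKO and Null MEFs by the interaction test of edgeR's quasi-likelihood fit, given here as the log2 response in DKO minus that in Null MEFs. It was 2.05 for Hoxa4, 0.98 for Hoxb6, 3.00 for Hoxb8, 3.97 for Hoxb9, 4.76 for Hoxb13, 2.69 for Hoxd3, 2.89 for Hoxd4 and 1.93 for Hoxd8. It was -2.88 for Hoxa5, -0.83 for Hoxa11, -1.34 for Hoxa13, -1.04 for Hoxd10, -0.48 for Hoxd11, -1.85 for Hoxd12 and -0.57 for Hoxd13. The value of Hoxb13 rests on a group at 0 and is a fitted value with no bound, and that of Hoxb8 rests on 1 count in each untreated DKO library.

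The calls of Hoxa11, Hoxa13, Hoxb8, Hoxb9, Hoxd4, Hoxd8, Hoxd10, Hoxd11 and Hoxd13 stayed past the threshold in each alternative run in which the gene was tested. The others were lost with 1 library left out. Hoxa4 was lost without untreated DKO replicate 1 or 2 or DKO etoposide replicate 1 or 3 (1.78, 2.01, 1.77 and 1.99), Hoxb6 without untreated DKO replicate 2 (0.83), and Hoxd3 without that library or DKO etoposide replicate 1 or 3 (2.16, 2.31 and 2.39). Hoxd12 was lost without untreated Null replicate 1 or 2 or untreated DKO replicate 2 or 3 (-1.83, -1.52, -1.79 and -1.70). Hoxa5 was lost without untreated Null replicate 2 or 3, untreated DKO replicate 1 or 2 or DKO etoposide replicate 2 or 3 (-2.85, -2.87, -2.44, -2.95, -2.50 and -2.21). Hoxb13 was lost without any 1 library other than DKO etoposide replicate 2 or 3, with fitted values from 4.05 to 4.84, and also with the replicate block, with DESeq2's size factors and with no filter (4.76, 4.69 and 4.77). The causes were not tested.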

How the results depend on the processing

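No called Hox gene was called in the opposite direction under any alternative, and 1 changed sign: Hoxd11 with etoposide in DKO MEFs, at -0.21, was at 0.06 and not called with library size alone. Of 715 values of the 9 named Hox genes 664 kept their side of the threshold, 38 lost it and 13 gained it. The stricter filter tested 19 Hox genes, so genes it left out could not be called, and it gave 9 higher and 4 lower with etoposide in Null MEFs, 8 higher in DKO MEFs, 14 lower in DKO against Null MEFs both without treatment and after etoposide, and 5 above 0 in the interaction. Hoxa10 and Hoxb6 were tested there and lost with etoposide in Null MEFs (-0.11 and -0.21), as was Hoxa10 in untreated DKO against Null MEFs (0.15). limma-trend called 4 Hox genes lower with etoposide in Null MEFs, where it lost Hoxa4, Hoxb6, Hoxb9 and Hoxd3 among the falls and Hoxb5 and Hoxc6 among the rises. In DKO MEFs with etoposide, in place of 13, 17 were called higher under DESeq2 and with library size alone, 15 with the legacy fit, 14 under limma-trend, 8 with no filter and 7 from the 6 libraries alone, where 16 were tested. With 1 library left out this count ranged from 6 to 12, and the interaction count above 0 from 4 to 8. Beside these counts, the calls over all genes are given for library size alone only. Under the other settings a change in Hox genes cannot be told from a change in all genes. Library size alone moved the median of all genes by 0.17 with etoposide in Null MEFs, 0.27 in DKO MEFs and -0.12 in untreated DKO against Null MEFs. It gave 7806 genes higher and 4396 lower, 9316 higher and 3004 lower, and 3977 higher and 6393 lower in these, and 5734 above and 3055 below 0 in the interaction, and called 3 Hox genes lower with etoposide in DKO MEFs. With the longest transcript as length Hoxa10 stood at 13.2 CPM per kb over the 12 libraries in place of 10.3. Apart from genes left out, the cause was not tested. Genes near 3 counts per library are limited by depth.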

Other observations

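Tbx5, Tbx4 and Pitx1, outside the Hox clusters, were chosen after their values were seen, and 66.7% and 74% of all genes tested were called in DKO against Null MEFs without and with etoposide. Tbx5, a gene of the forelimb, had 5.91, 5.98 and 4.91 CPM in untreated Null, 0.0301, 0.0435 and 0.0671 CPM in untreated DKO, 5.3, 5.21 and 5.82 CPM in Null after etoposide and 0.0202, 0.0137 and 0.0794 CPM in DKO after etoposide. Tbx4, a gene of the hindlimb, had 1.01, 0.83 and 1.34 CPM in untreated Null, 19.9, 21.1 and 18.8 CPM in untreated DKO, 3.49, 3.2 and 4 CPM in Null after etoposide and 25.9, 26.5 and 23.3 CPM in DKO after etoposide. Pitx1, also of the hindlimb, had 1.9, 1.15 and 1.85 CPM in untreated Null, 9.1, 11.4 and 8.91 CPM in untreated DKO, 4.55, 3.45 and 4.39 CPM in Null after etoposide and 16.3, 15.8 and 15.3 CPM in DKO after etoposide. DKO libraries were low in Tbx5 and high in Tbx4 and Pitx1, without overlap under either condition. The untreated log2 fold changes were -6.88, 4.24 and 2.58 (standard errors 0.27, 0.12 and 0.16, edgeR adjusted p = 7.99e-15, 3.72e-15 and 9.43e-11). Genotype and line cannot be told apart here either.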
